A study of Mus musculus with 8 samples.

Results

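Granule cells are the small excitatory neurons of the cerebellum, and 10 genes known to mark them were followed on arrays of total mouse brain. The genes were Cbln3, Cbln1, Gabra6, Grin2c, Fat2, Cdh15, Zic1, Zic2, Neurod1 and Barhl1, taken as a fixed list of granule neuron genes. All 10 were measured, out of 22180 genes that had a probe set with a single gene symbol. The list was chosen by the NDP-MSH minus PBS values of wild-type mice, among which cerebellar genes had been seen to lie low, so that contrast is described here and not tested. The arrays of C57BL/6Je/e mice are other arrays, and the treatment contrast among them was tested.

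Disease was induced in every mouse by immunization against the myelin protein MOG, a model of multiple sclerosis, and brains were taken on day 14, at the height of the disease by the labels. Wild-type mice were black, and C57BL/6Je/e mice (e/e below) were yellow, the coat colour by which they were recognised. The e/e allele is known to inactivate the melanocortin receptor Mc1r throughout the body. Each genotype received either PBS or NDP-MSH, a stable analog of the hormone alpha-MSH that was injected into a vein on days 8, 10 and 12 at a dose of 5 µg per mouse. Genotype and treatment together define 4 groups of 2 arrays, and an unimmunized brain was not among them. The age of the mice, and whether each array came from a separate animal, were not given in the sources used here, so errors measure the spread between these samples.

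The cerebellar cortex is built around a simple circuit. Mossy fibres from the brainstem and spinal cord excite granule cells, whose axons, the parallel fibres, contact Purkinje cells, the only output neurons of the cortex. Granule cells are among the most numerous neurons of the brain, and very few neurons elsewhere use Gabra6 or Cbln3. In whole-brain RNA, fewer cells of a type and less RNA per cell cannot be told apart, and nor can the amount of cerebellum that went into a sample.

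Some arrays stood apart from the rest in other genes. The pituitary hormone gene Prl lay at 6.97 on wild-type NDP-MSH 1 and between -0.47 and 0.10 on the other 7 arrays, and Cdhr1, a gene of olfactory bulb output neurons, reached 2.23 on wild-type NDP-MSH 2, with 0.49 as its next highest value. The Y-linked Eif2s3y lay at 2.04 on e/e PBS 2 and at 2.78 and 2.87 on the e/e NDP-MSH arrays, against 0.02 or below on the other 5. Xist, the RNA of the inactive X chromosome, lay between -0.82 and 0.67 on e/e PBS 2, e/e PBS 1 and the wild-type arrays and at -4.46 and -4.56 on the e/e NDP-MSH arrays, so e/e PBS 2 carried both signals. Values are logarithms of unstated base, read as log2 throughout, and each gene was centred on its median over the 8 arrays. A value therefore says how far an array lies from the gene's own median, and levels of different genes cannot be compared.

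The upstream regions of the 3 members that lay lowest on the wild-type NDP-MSH arrays, and of Zic1, are shown because these genes lay low on the same arrays while their promoters differ in composition. RefSeq promoter entries (GRCm38.p6) were found for 8 of the 10 members, in 9 windows, and the 250 bases before the start are given 5′ to 3′ on the gene's strand. Capitals mark E-boxes (CANNTG, both strands), the sequence bound by Neurod1 and other basic helix-loop-helix factors.
Cbln3, chr14:55884257-55884506, minus strand: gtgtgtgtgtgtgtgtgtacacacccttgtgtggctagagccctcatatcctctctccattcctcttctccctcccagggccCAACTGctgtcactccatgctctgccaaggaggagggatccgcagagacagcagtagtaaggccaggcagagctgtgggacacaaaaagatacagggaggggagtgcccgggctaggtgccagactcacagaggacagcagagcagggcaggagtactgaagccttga
Gabra6, chr11:42321073-42321322, minus strand: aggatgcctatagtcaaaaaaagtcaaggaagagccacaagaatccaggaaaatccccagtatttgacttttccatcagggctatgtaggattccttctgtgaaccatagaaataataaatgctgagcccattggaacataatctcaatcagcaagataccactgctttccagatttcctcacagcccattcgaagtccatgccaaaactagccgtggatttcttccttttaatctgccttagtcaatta
Fat2, chr11:55312258-55312507, minus strand: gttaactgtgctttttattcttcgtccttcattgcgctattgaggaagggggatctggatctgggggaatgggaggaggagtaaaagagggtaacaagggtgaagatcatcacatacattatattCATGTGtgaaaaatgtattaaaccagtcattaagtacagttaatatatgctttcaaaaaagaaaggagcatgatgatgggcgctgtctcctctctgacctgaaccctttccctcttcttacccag
Zic1, chr9:91365769-91366018, minus strand: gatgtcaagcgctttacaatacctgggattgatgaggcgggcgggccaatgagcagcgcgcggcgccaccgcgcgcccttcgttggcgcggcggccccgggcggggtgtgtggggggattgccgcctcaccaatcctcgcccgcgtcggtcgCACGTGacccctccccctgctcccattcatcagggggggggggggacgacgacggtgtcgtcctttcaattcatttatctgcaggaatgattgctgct
The Cbln3, Gabra6 and Fat2 windows held 2, 2 and 3 CpG dinucleotides, and the Zic1 window held 27. Over 32851 mouse promoter windows of this length the median was 6, with 25th and 75th percentiles of 2 and 16. An E-box was present in 7 of the 9 member windows, and 66.2% of all windows held one. The window of Gabra6 held no E-box. The core of the nuclear factor I site, TTGGC on either strand, was present in 5 of the 9 windows and in 41.5% of all, and the ZIC motif CAGCAGG on either strand was present in 0 of the 9 and in 8.44% of all. These are matches of letters in the windows and were not tested.

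**Figure D1:**
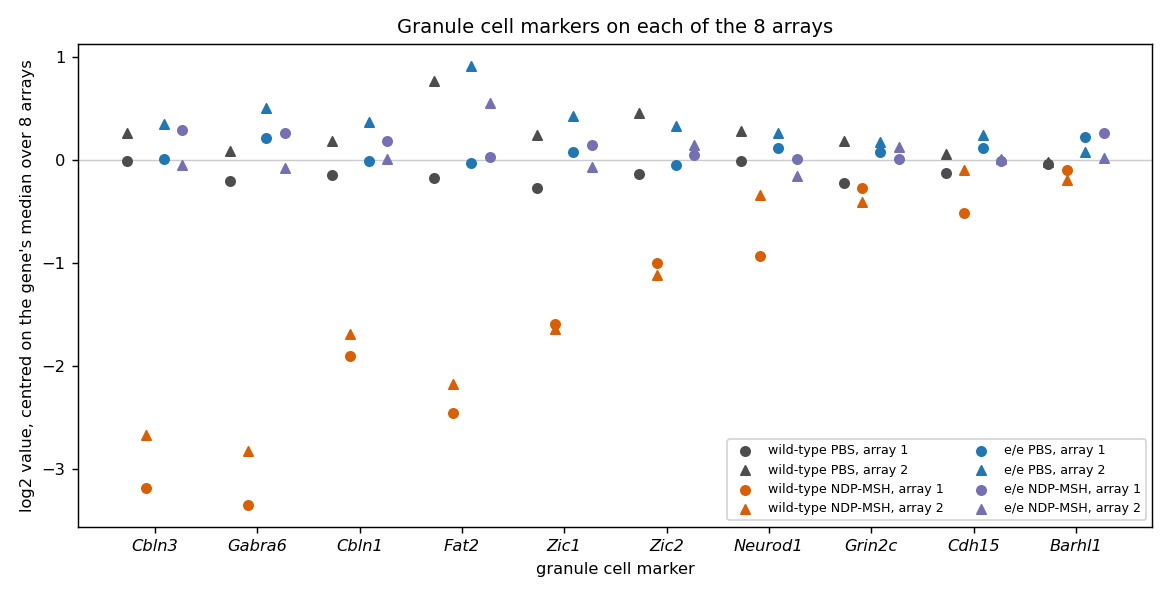
Centred log2 value (vertical axis) of each of the 10 granule cell markers (horizontal axis) on each array. Colours mark the 4 groups, circles array 1 and triangles array 2. The 2 wild-type NDP-MSH arrays lie below the other 6 for 9 of the 10 genes, from -3.35 for Gabra6 to -0.10 for Barhl1, and Cdh15 is the exception.

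In wild-type mice the granule cell markers lay lower after NDP-MSH than after PBS, by amounts that differed widely between members. All 10 differences were negative, as were 45% over all genes, with a median of -1.41 against 0.018 over all genes, and they ran from -3.05 for Cbln3 to -0.12 for Barhl1. Both NDP-MSH arrays lay below both PBS arrays for 9 of 10 members, and for 18.9% of all genes. Both lay below all 6 other arrays for 9 of 10 members and 7.99% of all genes. A difference of -1 or lower was found for 6 of 10 members and for 0.185% of all genes. These counts describe the contrast in which the list was chosen, and nothing is read from them. The median was -1.46 without wild-type NDP-MSH 1, the array with the pituitary signal, and -1.37 without wild-type NDP-MSH 2.

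The synapse organisers of the parallel fibres were among the lowest. Cbln3 encodes a secreted protein of granule cells that assembles with Cbln1, and it lay at -0.01 and 0.26 on the wild-type PBS arrays and at -3.19 and -2.67 on the wild-type NDP-MSH arrays. On the e/e arrays Cbln3 lay at 0.01 and 0.35 after PBS and at 0.29 and -0.05 after NDP-MSH. The wild-type NDP-MSH arrays thus stood alone, and the other 6 arrays spanned 0.40. The wild-type difference was -3.05 ± 0.21 (SE, 2 arrays per group), which is 8.3-fold lower and the lowest of all 22180 genes in this fit. After quantile normalization Cbln3 differed by -2.53 and Gabra6 by -2.76. Cbln1 is released from parallel fibres and bridges neurexins to the delta glutamate receptor of Purkinje cells. It lay at -0.15 and 0.18 after PBS and at -1.91 and -1.69 after NDP-MSH in wild-type mice, and at -0.01, 0.37, 0.18 and 0.01 on the e/e PBS and then the e/e NDP-MSH arrays. Its wild-type difference of -1.82 ± 0.16, or 3.52-fold, was smaller than that of its partner, and again the groups did not overlap.

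The transmitter receptor subunits split into one with a large and one with a small difference. Gabra6, the GABA-A receptor subunit that gives granule cells their tonic inhibition together with the delta subunit, lay at -0.21 and 0.08 on wild-type PBS arrays and at -3.35 and -2.83 on wild-type NDP-MSH arrays. It lay at 0.21 and 0.50 on e/e PBS arrays and at 0.26 and -0.08 on e/e NDP-MSH arrays, so again only the wild-type NDP-MSH arrays were low. The wild-type difference was -3.02 ± 0.20, or 8.14-fold. Grin2c encodes the NMDA receptor subunit that mature granule cells take up in place of Grin2b. Its mean over 2 probe sets lay at -0.23 and 0.18 after PBS and at -0.27 and -0.41 after NDP-MSH in wild-type mice, and between 0.01 and 0.17 on the e/e arrays. Wild-type NDP-MSH 1 lay just under wild-type PBS 1, and the difference was -0.32 ± 0.13, or -0.12 without wild-type PBS 2 and -0.52 without wild-type PBS 1. The probe sets disagreed: one differed by -0.50 in wild-type mice and the other by -0.14, with its values of -0.31 and 0.17 after PBS overlapping those of -0.03 and -0.39 after NDP-MSH.

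The 2 cadherin superfamily members also differed from each other. Fat2, a very large protocadherin of parallel fibres, lay at -0.18 and 0.76 on the wild-type PBS arrays, at -2.46 and -2.18 on the wild-type NDP-MSH arrays, at -0.03 and 0.91 on the e/e PBS arrays and at 0.03 and 0.55 on the e/e NDP-MSH arrays. It varied more than any other member outside the wild-type NDP-MSH arrays, with a range of 1.09, and its wild-type difference was -2.62 ± 0.38, or 6.13-fold. Cdh15, an adhesion molecule of granule cells and of skeletal muscle, lay at -0.13 and 0.06 after PBS and at -0.52 and -0.10 after NDP-MSH in wild-type mice. Its groups overlapped there, with wild-type NDP-MSH 2 above wild-type PBS 1, and the difference was -0.28 ± 0.14. It was -0.07 without wild-type NDP-MSH 1, -0.48 without wild-type NDP-MSH 2 and -0.18 without wild-type PBS 2. On the e/e arrays Cdh15 lay at 0.11 and 0.24 after PBS and at -0.01 and 0.01 after NDP-MSH.

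The 4 transcription factor genes had middling to small differences. Zic1 and Zic2 encode zinc finger factors of granule cell precursors that stay on in the adult cell. Zic1 lay at -0.27 and 0.24 after PBS and at -1.59 and -1.64 after NDP-MSH in wild-type mice, a difference of -1.61 ± 0.18, and at 0.07, 0.42, 0.14 and -0.07 on the e/e PBS and then the e/e NDP-MSH arrays. Zic2 lay at -0.14 and 0.45 after PBS and at -1.0 and -1.12 after NDP-MSH, a difference of -1.22 ± 0.20, and between -0.05 and 0.33 on the e/e arrays. Both kept the wild-type NDP-MSH arrays clear of the other 6. Zic genes are also expressed in the meninges, and the part of the meninges in the Zic values was not tested. Meningeal fibroblast markers (Col1a1, Col1a2, Dcn, Lum and Igf2) had a median difference of 0.06 in the same contrast. Of these, 1 of 5 was lower, where 45% of all genes were.

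Neurod1, which granule cells need to differentiate and survive, lay at -0.01 and 0.28 after PBS and at -0.93 and -0.34 after NDP-MSH in wild-type mice. Its NDP-MSH arrays were the farthest apart of any member, by 0.59, and the difference was -0.77 ± 0.19, or -0.48 without wild-type NDP-MSH 1. On the e/e arrays Neurod1 lay at 0.11 and 0.26 after PBS and at 0.01 and -0.16 after NDP-MSH. A second probe set that the annotation gives to Neurod1 and another gene together was not used. Barhl1, a homeobox factor of the granule cell lineage, lay at -0.04 and -0.02 after PBS and at -0.10 and -0.20 after NDP-MSH, a difference of -0.12 ± 0.10 (-0.06 without wild-type NDP-MSH 2), and between 0.02 and 0.26 on the e/e arrays. Its wild-type groups did not overlap, but they were apart by less than its e/e arrays were spread.

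The size of the wild-type difference went with the brightness class of the probe set. The rounding step left in the deposited values places the signal before centring at 8 or above for 6 members, Cbln3, Gabra6, Cbln1, Fat2, Zic1 and Zic2, if the base is 2. These were the members with differences between -3.05 and -1.22. The signal was placed between 4 and 8 for Neurod1, Grin2c (both probe sets), Cdh15 and Barhl1, whose differences lay between -0.77 and -0.12, and for 25991 of the 33793 probe sets in the table. Array signals near background are known to understate differences, and the part of brightness in the order of the members was not tested.

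**Figure D2:**
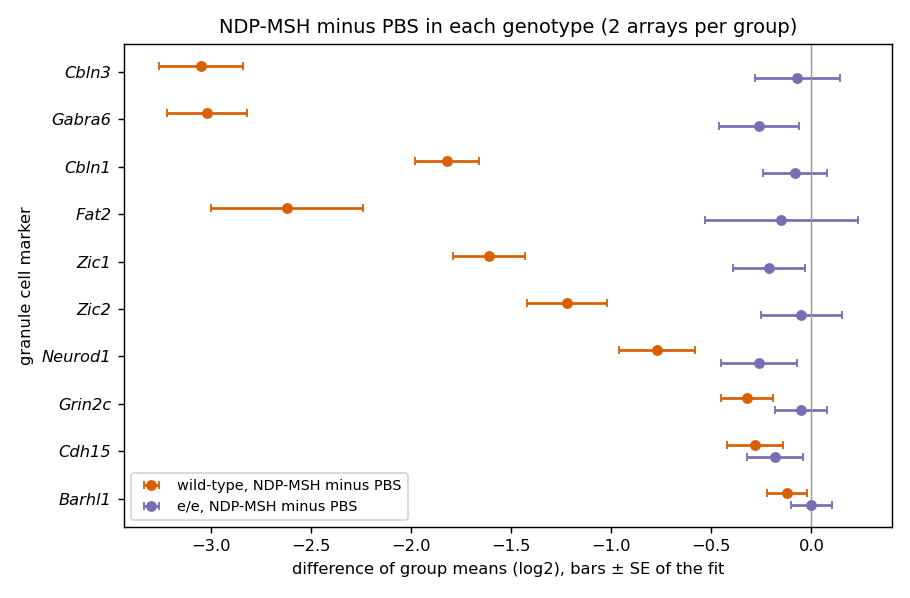
Difference of group means, NDP-MSH minus PBS (horizontal axis, log2), for each granule cell marker (vertical axis) in wild-type mice (orange) and e/e mice (purple), with bars of ± SE from the fit over all arrays. Wild-type differences run from -3.05 to -0.12, and none of the e/e differences goes below -0.26.

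In e/e mice the granule cell markers did not show a change with NDP-MSH that passed the test. Gabra6 and Neurod1 had the lowest differences, each -0.26 (SE 0.20 and 0.19), followed by Zic1 at -0.21 ± 0.18, Cdh15 at -0.18 ± 0.14 and Fat2 at -0.15 ± 0.38. Cbln1 differed by -0.08 ± 0.16, Cbln3 by -0.07 ± 0.21, Zic2 by -0.05 ± 0.20 and Grin2c by -0.05 ± 0.13, and Barhl1 had a mean of 0.14 in both groups. By limma, 0 of 10 members had an adjusted p under 0.05 and 0 of 10 an unadjusted p under 0.05, where 0% and 3.56% of all genes did. The smallest unadjusted p among the members was 0.212, for Neurod1 (limma, two-sided, adjusted p = 1.0). All 10 members were lower as group means, Barhl1 by only -0.000438, as were 46.3% of all genes. The median over the members was -0.12.

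The e/e intervals bound the difference between the e/e groups as sampled. Xist lay at -4.46 and -4.56 on the e/e NDP-MSH arrays and at 0.56 and -0.82 on the e/e PBS arrays. A difference by treatment therefore cannot be told apart here from one that goes with the Xist and Y-linked signals. The 95% interval of the e/e difference ran from -0.55 to 0.42 for Cbln3, from -0.73 to 0.21 for Gabra6, from -0.46 to 0.30 for Cbln1 and from -0.64 to 0.21 for Zic1. That of Fat2 was the widest, from -1.05 to 0.74. Only Neurod1 and Cdh15 had both e/e NDP-MSH arrays below both e/e PBS arrays, 2 of 10 members against 14.3% of all genes. The e/e median rested on single PBS arrays: it was -0.02 without e/e PBS 2, the array with Xist and Y-linked signal together, and -0.26 without e/e PBS 1.

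The effect of NDP-MSH, wild-type minus e/e, had a median of -1.28 over the members. It was -2.99 ± 0.29 for Cbln3, -2.76 ± 0.28 for Gabra6, -2.46 ± 0.54 for Fat2 and -0.12 ± 0.14 for Barhl1, and it holds the contrast in which the list was chosen, so no test is given. The e/e NDP-MSH arrays lay above the wild-type NDP-MSH arrays by a median of 1.41. These groups also differed in Xist, at -4.46 and -4.56 in e/e and at 0.62 and -0.56 in wild-type. Eif2s3y lay at 2.78 and 2.87 in e/e and at -0.15 and -0.19 in wild-type. A difference by genotype therefore cannot be told apart from one that goes with these signals, here or in the effect above. Under PBS, e/e lay above wild-type for 9 of 10 members, with a median of 0.15, where 50.1% of all genes lay higher. The median was -0.03 without wild-type PBS 1, 0.32 without wild-type PBS 2, 0.25 when e/e PBS 1 was left out and 0.03 when the other e/e PBS array was, so its direction rests on 1 array. The gap was widest for Gabra6, at 0.42 ± 0.20, and Zic2 was the member that lay lower, at -0.02 ± 0.20. The PBS comparison shares the wild-type PBS arrays with the contrast that chose the list and is likewise given without a test.

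The arrays of one group differed in the members too. On wild-type PBS 2 all 10 members lay above wild-type PBS 1, and on e/e PBS 2 9 of 10 lay above e/e PBS 1, where 49.5% and 45.1% of all genes did. Of the wild-type NDP-MSH arrays, array 2 lay above array 1 for 6 of 10 members and 54.5% of all genes. The gap between the 2 wild-type PBS arrays had a median of 0.31 over the members, from 0.02 for Barhl1 to 0.94 for Fat2, and that between the e/e PBS arrays had the same median and reached 0.94 for Fat2. The list median of forebrain neuron genes lay the other way, though not every gene of that list did. It was 0.02 and -0.29 on the wild-type PBS arrays and 0.09 and -0.36 on the e/e PBS arrays. The median of the 10 markers was -0.14 and 0.21 on the wild-type PBS arrays, 0.07 and 0.34 on the e/e PBS arrays, 0.09 and 0.01 on the e/e NDP-MSH arrays, and -1.30 and -1.38 on the wild-type NDP-MSH arrays.

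Most members varied together. The correlation of each member with the mean of the other 9 over the 8 arrays was 0.97 or higher for Cbln3, Gabra6, Cbln1, Fat2, Zic1 and Zic2, 0.89 for Neurod1, 0.87 for Grin2c, 0.83 for Cdh15 and 0.67 for Barhl1. The wild-type NDP-MSH arrays carry much of these values. Over the other 6 arrays it was 0.98 for Zic1, 0.95 for Cbln1, 0.85 for Cdh15, 0.82 for Zic2 and Grin2c, and 0.79, 0.77, 0.71 and 0.67 for Cbln3, Gabra6, Fat2 and Neurod1. Barhl1 had 0.04 there, so it followed the other markers least. The closest fellow member of Cbln3 was Gabra6, with a correlation of 0.996, and that of Fat2 was Zic2, with 0.987. Correlations here are descriptions over arrays that share a tissue and a normalization.

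**Figure D3:**
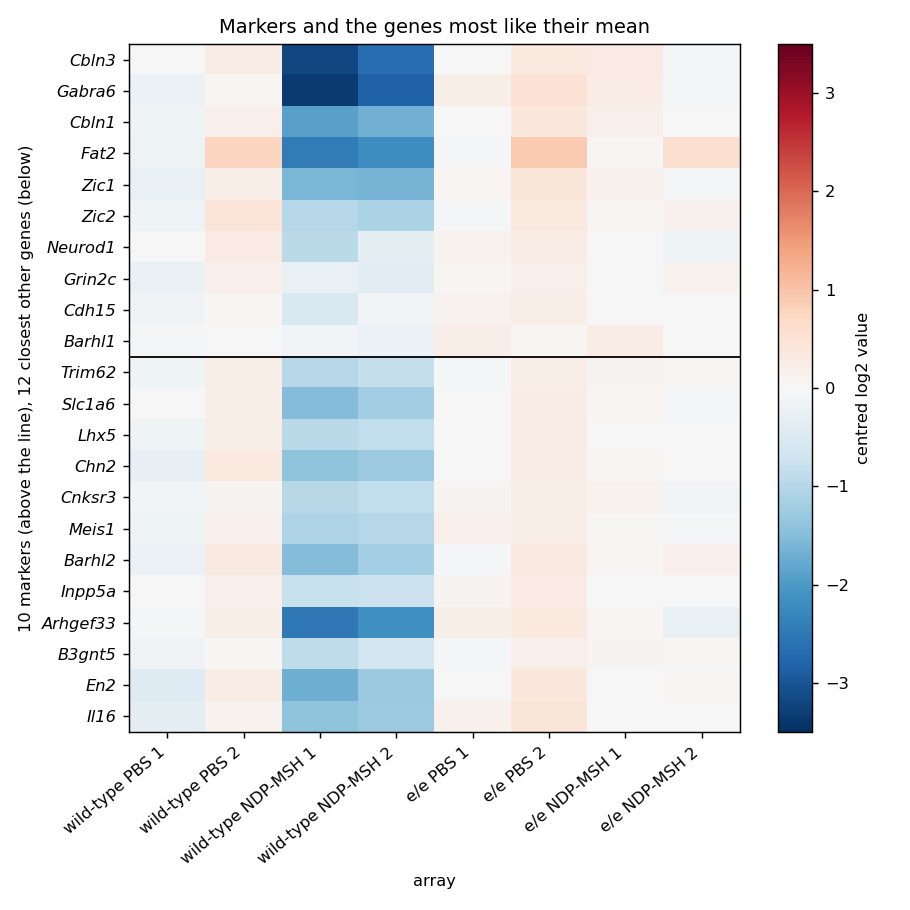
Heat map of centred log2 values, with arrays in columns and genes in rows, blue for low and red for high. The 10 markers stand above the line and the 12 other genes closest to their mean below it, and both blocks are bluest on the 2 wild-type NDP-MSH arrays, where Arhgef33 lies at -2.51 and -2.16.

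The genes outside the list that followed its mean most closely were drawn from those with a range of at least 1 over the arrays. The 12 closest, with correlations between 0.988 and 0.996 over 8 arrays, were Trim62, Slc1a6, Lhx5, Chn2, Cnksr3, Meis1, Barhl2, Inpp5a, Arhgef33, B3gnt5, En2 and Il16. Slc1a6, the glutamate transporter of Purkinje cells, had a wild-type difference of -1.48 ± 0.14, and En2, a patterning gene of the midbrain and cerebellum, one of -1.41 ± 0.24. Barhl2, the relative of Barhl1, had a difference of -1.40 ± 0.20, with values of -0.21 and 0.32 after PBS and -1.51 and -1.19 after NDP-MSH. These correlations rest largely on the 2 wild-type NDP-MSH arrays, by whose values the list was chosen. For single members the closest gene was Slc1a6 for Cbln3, Dao for Gabra6, Cbln3 for Cbln1, Barhl2 for Fat2, Mab21l1 for Zic1 and Megf11 for Zic2, with correlations from 0.989 to 0.996. The correlations were 0.970 for Neurod1 with Cep72, 0.962 for Grin2c with Xkr6, 0.953 for Cdh15 with Dusp5 and 0.880 for Barhl1 with Fa2h.

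Genes beside the members were read in the same way, and their wild-type values come from the contrast that chose the list and are given without a test. A further list of 18 genes used by granule cells had 17 measured. After NDP-MSH in wild-type mice 15 were lower and 2 higher, where 45% of all genes were lower. The list median was -0.42, and the differences ran from -1.36 to 0.31. A difference of -1 or lower was found for 4 of 17, against 0.185% of all genes. Meis1, a homeobox gene of the granule cell lineage, lay at -0.15 and 0.18 after PBS and at -1.09 and -0.99 after NDP-MSH, a difference of -1.06 ± 0.11. Mab21l1 differed by -1.33 ± 0.15, Chn2 by -1.36 ± 0.19 and Grm4, the presynaptic glutamate receptor of parallel fibres, by -1.16 ± 0.18. Grin2a and Neurod2, which neurons of the forebrain also use, differed by -0.01 ± 0.11 and 0.04 ± 0.09. In e/e mice the median was -0.09, and 13 of 17 were lower, against 46.3% of all genes. By limma 0 passed and 0 had an unadjusted p under 0.05, where 0% and 3.56% of all genes did.

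Relatives and partners of the members were spread to both sides. Gabrd, Grin2a, Zic4, Zic5 and Neurod2 are on this list and on the one before. Of 21 measured, 13 were lower and 8 higher in the wild-type contrast, where 45% of all genes were lower, with a list median of -0.04. A difference of -1 or lower was found for 1 of 21, Barhl2, and for 0.185% of all genes. The next lowest was Fat1 at -0.75 ± 0.24. Neurod6, a factor of cortical and hippocampal neurons, lay higher at 0.75 ± 0.18, and Zic5 at -0.42 ± 0.12. The NMDA receptor subunit genes Grin2a and Grin2b lay at -0.01 (SE 0.11 and 0.09).

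Most markers of Purkinje cells lay low on the same arrays, and so did part of the Bergmann glia and cerebellar interneuron markers. All 11 Purkinje cell genes measured were lower in the wild-type contrast, as were 45% of all genes, with a median of -1.03. A difference of -1 or lower was found for 6 of 11, against 0.185% of all genes. Ppp1r17 lay at -2.41 ± 0.29 and Car8 at -2.34 ± 0.17, while Pcp4 lay at -0.06 ± 0.08. Of 4 Bergmann glia genes, Dao lay at -1.96 ± 0.18 and Gdf10 at -1.48 ± 0.17, and Hopx and Slc1a3, which other astrocytes also use, at -0.05 ± 0.10 and -0.20 ± 0.08. Of 6 genes of cerebellar interneurons 3 were lower and 3 higher, with a median of -0.06. Tfap2b lay at -1.33 ± 0.16 and Pvalb at -0.86 ± 0.08, while Grm2 lay higher at 0.43 ± 0.13. In e/e mice the medians of the 3 lists were -0.12, -0.12 and 0.06. By limma 0 genes of these lists passed the threshold there, as did 0% of all genes. An unadjusted p under 0.05 was found for 1 of 11 Purkinje cell genes, 1 of 6 interneuron genes and 3.56% of all genes.

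**Figure D4:**
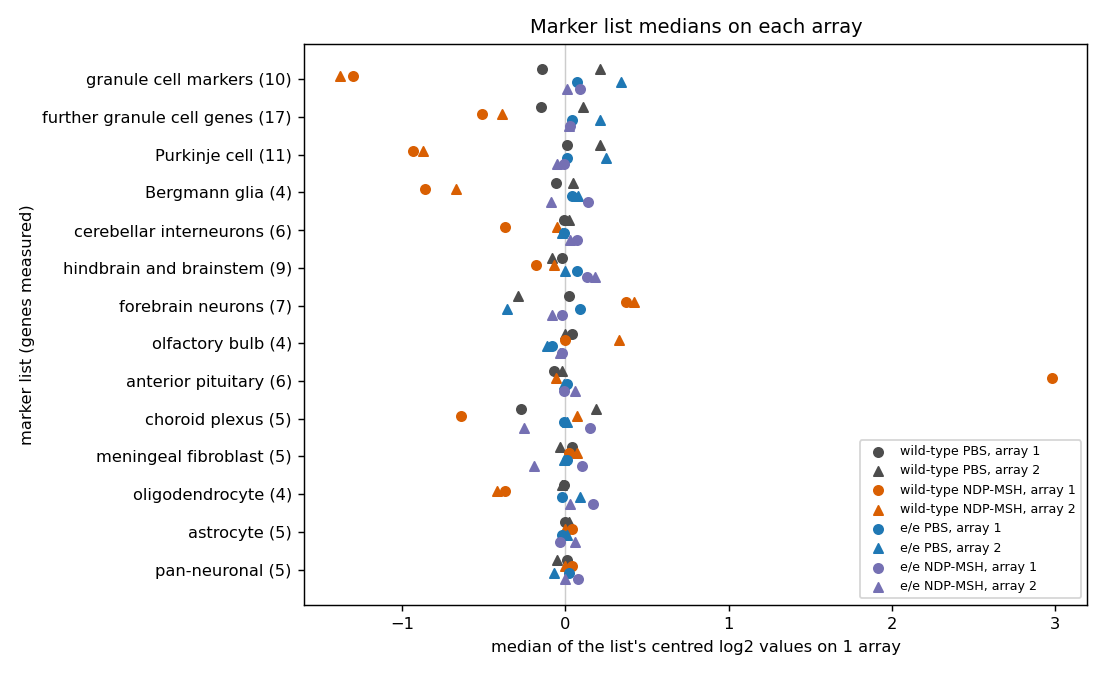
Median of the centred log2 values of each marker list (vertical axis, genes measured in brackets) on each array (horizontal axis). On the wild-type NDP-MSH arrays the granule cell, Purkinje cell and Bergmann glia medians lie between -1.38 and -0.67, forebrain medians lie at 0.37 and 0.42, and the pituitary median lies at 2.98 on array 1.

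Markers of other regions and of cells not confined to the cerebellum did not share the pattern in one direction. Forebrain neuron genes were lower in 1 of 7 and higher in 6 of 7 in the wild-type contrast, where 45% of all genes were lower. Their list medians were 0.37 and 0.42 on the NDP-MSH arrays and 0.02 and -0.29 on the PBS arrays, and Fezf2 lay at 0.75 ± 0.20. Hindbrain and brainstem genes had a median difference of -0.06, with 6 of 9 lower, and the glycine transporter gene Slc6a5, also used by cerebellar Golgi cells, lay at -1.19 ± 0.20. Pan-neuronal genes had a median of 0.06 and lay between -0.05 and 0.18. Oligodendrocyte genes were lower in 4 of 4 measured, with a median of -0.41, and astrocyte genes had a median of -0.01. Both wild-type NDP-MSH arrays lay below all 6 other arrays for 4 of 4 oligodendrocyte genes, against 7.99% of all genes. That held for 4 of 9 hindbrain and brainstem, 1 of 5 astrocyte, 0 of 7 forebrain neuron, 0 of 5 pan-neuronal and 0 of 5 choroid plexus genes. Choroid plexus genes were low on wild-type NDP-MSH 1, with a median of -0.64, and not on wild-type NDP-MSH 2, at 0.07. In e/e mice the medians of these 6 lists lay between -0.05 and 0.10, and by limma 0 of their genes passed the threshold, as did 0% of all genes. Of their genes 1, a forebrain neuron gene, had an unadjusted p under 0.05, as had 3.56% of all genes. Their part in the granule cell values was not tested, nor that of the pituitary and olfactory signals on the same arrays.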

How the data were processed

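RNA from total brain was hybridised to Affymetrix whole-transcript arrays, 1 per sample, after biotin labelling with the WT Plus kit per the labels' protocols. The deposited log2 values were made by the authors. The log base (assumed 2), the summarisation and the normalization were not given in the labels or headers. Rows proved to be median-centred (largest absolute row median 5e-07). Of 33793 probe sets, 23521 had 1 gene symbol in the platform annotation, 8458 had none here, and 1814 with several were dropped. Probe sets of a gene were averaged, which gave 22180 genes (1082 with more than 1 probe set).

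A linear model with 1 coefficient per group was fitted over all 8 arrays with limma 3.58.1 in R 4.3.3 (4 residual and 3.45 prior degrees of freedom, two-sided moderated tests, Benjamini-Hochberg over all genes, threshold 0.05), after the fit had been tested on simulated data. Intervals are 95% intervals from this fit. The brightness class was read from differences between values of a row within 1 of its median, as whole multiples of a single-precision step. For both classes the tolerance was 0.05 of the coarser step, that of signals at 8 or above, plus the printed rounding. The class can err for single rows. Replicates were the labels' array numbers. The members and lists were chosen with earlier results of these data known. All members are named. From each other list the 4 genes with the largest absolute wild-type difference and the 2 with the smallest could be named. Prl, Cdhr1, Xist and Eif2s3y were chosen after their values were seen. The closest genes were the 12 with the highest Pearson correlation to the mean of the members, skipping symbols of predicted genes, clones, small RNAs and chemosensory receptors. Slide and scan date were not used here. The number of arrays limits the precision. Python 3.11.15 with matplotlib 3.10.9 drew the figures.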

Additional observations from a re-analysis of the deposited data

How the results depend on the processing

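Alternatives were a replicate block, array weights, quantile normalization, centring on column medians, only the arrays compared, single probe sets, and leaving out each array. The wild-type median of the members, in the contrast that chose the list, stayed negative in all of them. It ranged from -1.69 to -1.14 when 1 array was left out, both ends reached by leaving out a wild-type PBS array. The block, the array weights, only the arrays compared and leaving out an e/e array left it at -1.41. These settings do not change the wild-type group means, so they could not move it. The median of the effect, wild-type minus e/e, ranged from -1.56 to -1.01. The e/e median ranged from -0.257 to -0.0217, that of e/e against wild-type under PBS from -0.0338 to 0.315, and no member passed the threshold in e/e mice in any of them. The median of e/e against wild-type under NDP-MSH ranged from 1.36 to 1.45. After quantile normalization the e/e median was -0.0611, and Cbln3 in wild-type mice lay at -2.53.

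Several e/e differences turned positive, none past the threshold: as 1 array was left out, Cbln3 ranged from -0.236 to 0.105, Cbln1 from -0.27 to 0.11, Fat2 from -0.622 to 0.315 and Zic2 from -0.238 to 0.147, the low end without e/e PBS 1 and the high end without e/e PBS 2. Grin2c ranged from -0.107 to 0.00371 and lay at 0.0251 by its wider-ranging probe set, and Barhl1 ranged from -0.12 to 0.119.

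The labels' replicate numbers recur in each group without a stated pairing. Deviations of same-numbered arrays correlated at 0.443 between the PBS groups, 0.179 between the e/e groups, 0.128 between wild-type PBS and e/e NDP-MSH, -0.098 between the wild-type groups, -0.126 between the NDP-MSH groups and -0.251 between wild-type NDP-MSH and e/e PBS. As they were not all above 0.1, the numbers were not taken to pair the samples. With the replicate block the wild-type contrast had 14 calls over all genes in place of 39. The e/e contrast had 0 as without it, with 0 members called. The member medians were the same, as a block balanced over the groups cannot move them. Exchanging the numbers of the wild-type NDP-MSH arrays was a setting added after seeing the data. Between the NDP-MSH groups it gave 455 calls in place of 51 with the block as labelled and 75 without it. In the wild-type contrast it gave 125 in place of 14 and 39, and in the e/e contrast 0. The exchange reverses the sign of the correlations with wild-type NDP-MSH, which were the negative ones. Whether the exchanged numbers pair the samples was not tested.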
